A study of Mus musculus with 12 samples.

Results

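The 9 genes described here control whether liver cells take up and burn glucose or make and release it: Gckr, Pfkfb1, Pklr, Pcx, Pck1, Fbp1, G6pc, Slc37a4 and Ppargc1a. They were chosen by name, from a list of control points of glucose phosphorylation, glycolysis and gluconeogenesis. All 9 were among the 46882 gene names of the deposited table, and all 9 were among the 13706 genes abundant enough to be tested. Liver RNA of C57BL/6 mice aged 6 to 8 weeks was sequenced. One group was wild type (WT, 6 libraries). The other carried the A1cf -/- genotype (KO, 6 libraries), a deletion of the gene for APOBEC1 complementation factor, an RNA-binding protein of hepatocytes. The labels give no feeding state, no time of day, no sex and no detail of the deleted allele, and RNA came from liver tissue, so hepatocytes and the other liver cells were sequenced together.

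In the liver, glucose is trapped as glucose 6-phosphate, and the regulator encoded by Gckr restrains this first step until sugar phosphates change after a meal. Glycolysis is then steered by the bifunctional kinase and phosphatase PFKFB1 and by liver pyruvate kinase, while the reverse route runs from pyruvate through pyruvate carboxylase, PEP carboxykinase and fructose bisphosphatase to the glucose-6-phosphatase system of the endoplasmic reticulum. Feeding and insulin are known to raise Pklr transcription, and fasting, glucagon and glucocorticoids are known to raise Pck1, G6pc and Ppargc1a.

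A1cf was lower in every KO library, at 8.20 to 12.6 CPM (counts scaled to library size) against 47.9 to 53.8 in WT, and 195 to 543 fragments were still counted in the KO libraries. Total counts ran from 22129092 to 51082317 per library. The library numbers fall into 2 ranges, 573 to 602 (3 WT, 5 KO) and 776 to 780 (3 WT, 1 KO). The labels do not say what the ranges stand for, so results are also given within them. The 7 hepatocyte markers summed to between 77915 and 107159 CPM, while all 5 kidney tubule markers, all 5 pancreas markers and all 5 muscle and fat markers stayed below 1 CPM in every library. Of all tested genes, 523 passed an adjusted p of 0.05 between KO and WT, which is 3.82%, and 287 of them, or 2.09%, were lower in KO.

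Of the 9 genes, 1 passed that threshold: Gckr fell in KO. The groups did not overlap for Gckr alone among the 9, a separation found in 3.3% of all tested genes. The median log2 fold change of the 9 genes was -0.12, with 1 of 9 above 0, while the median over all tested genes was 0.01, with 7101 above 0. In the plot of levels by library, the 6 Gckr points of each group stand apart, whereas G6pc spreads most within each group.

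**Figure D1:**
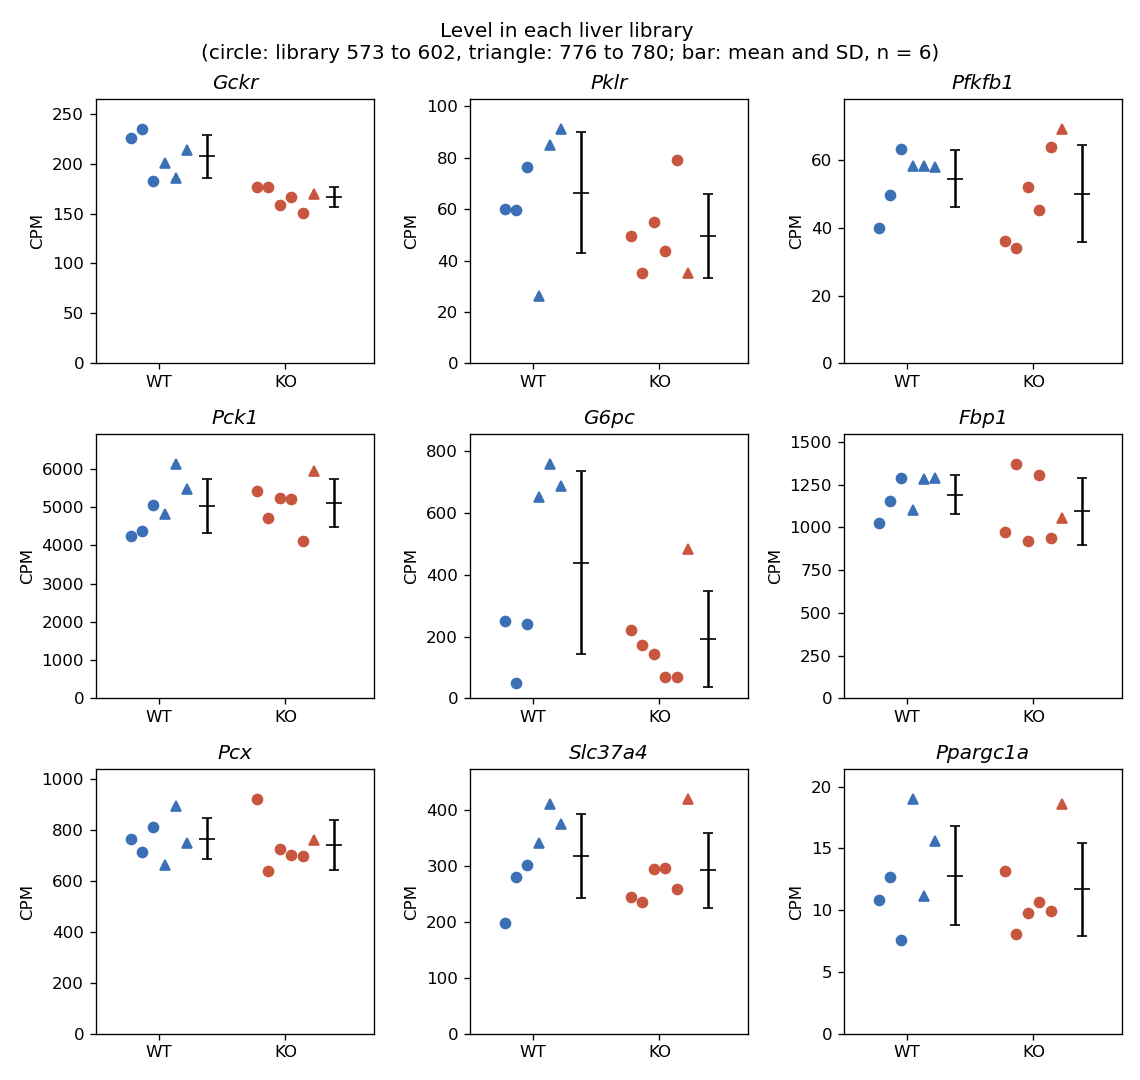
Level of each of the 9 genes in CPM (vertical axis, from 0) in 6 WT (blue) and 6 KO (red) liver libraries, with circles for libraries 573 to 602, triangles for libraries 776 to 780 and bars for the mean and SD of each group. Gckr was at 183 to 235 CPM in WT and at 151 to 177 CPM in KO, and the 4 triangles of G6pc lie at 484 to 759 CPM, above all 8 circles.

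Gckr (chromosome 5, 31297443 to 31327314, plus strand, mm10) encodes the inhibitor of hepatic glucose phosphorylation. Its level had a lowest, median and highest value of 183, 207 and 235 CPM in WT and of 151, 168 and 177 CPM in KO. Every KO library was thus below every WT library, with a gap from 177 to 183 CPM. The mean was 207 ± 21.3 CPM in WT and 166 ± 10.1 CPM in KO (SD, n = 6 each), so that KO held 80.3% of the WT level. On the log2 scale Gckr fell by 0.32 (SE 0.08, adjusted p = 0.048, edgeR quasi-likelihood test, Benjamini-Hochberg). A two-sided exact permutation test of its log2 CPM gave p = 0.0022, the smallest that this design allows.

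Within libraries 573 to 602, Gckr was at 183 to 235 CPM in 3 WT and at 151 to 177 CPM in 5 KO libraries, a difference of -0.37 on the log2 scale (exact permutation p = 0.018 over 56 assignments, two-sided). Within libraries 776 to 780 the single KO library stood at 170 CPM, below the 186 to 214 CPM of the 3 WT libraries. KO below WT in both ranges follows from the lack of overlap over all 12 libraries, and so does this p, the smallest that 56 assignments allow. The ranges therefore add no separate test of the direction. The adjusted p lay close to its threshold: leaving out 1 library at a time gave log2 changes from -0.35 to -0.28, and only the fit without WT 601 kept an adjusted p under 0.05 (0.039, against up to 0.10 in the other 11 edgeR fits). Summed hepatocyte markers overlapped between the groups, at 85364 to 107159 CPM in WT and 77915 to 97929 CPM in KO, and 0 of the 7 passed the threshold by edgeR, DESeq2 or limma-voom, with 2 at an unadjusted p under 0.05 by edgeR. The log2 fold change was above 0 in 1 of the 7 hepatocyte markers (median -0.10). It was above 0 in all 8 stellate cell markers (median 0.49), all 11 macrophage markers (median 0.69) and all 8 sinusoidal endothelial markers (median 0.20). Over all tested genes it was above 0 in 7101 of 13706 (median 0.01). Past the threshold were 2 stellate cell markers and 1 endothelial marker, beside 3.82% of all tested genes. The endothelial marker was Stab2, a scavenger receptor, which rose by 0.48 (adjusted p = 0.045, edgeR). Summed stellate cell markers ran from 137 to 252 CPM in WT and 225 to 313 CPM in KO, macrophage markers from 134 to 222 and 138 to 491 CPM, and endothelial markers from 135 to 266 and 215 to 258 CPM. Of the macrophage markers, 0 passed by edgeR, 10 had an unadjusted p under 0.05 and 3 passed by DESeq2. Of all 13706 tested genes, 2903 had an unadjusted p under 0.05 by edgeR and 1175 passed by DESeq2. In whole liver, a smaller share of a cell type and less RNA per cell cannot be told apart, and the part of these markers in the Gckr difference was not tested.

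The glycolytic members were lower on average in KO, without passing the threshold. Pfkfb1 (chromosome X, 150588229 to 150643878) encodes the liver form of the enzyme that makes and removes fructose bisphosphate signals. It was at 39.9 to 63.3 CPM (median 58.0) in WT and at 34.0 to 69.2 CPM (median 48.6) in KO. The KO libraries spanned the whole WT range, and the log2 fold change was -0.12 (SE 0.17, adjusted p = 0.74, edgeR).

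Pklr (chromosome 3, 89136142 to 89146784) encodes liver pyruvate kinase, the last enzyme of glycolysis. It was at 26.4 to 91.3 CPM (median 68.2) in WT and at 35.0 to 79.0 CPM (median 46.6) in KO. The lowest of all 12 values was WT 776, and the other 5 WT libraries lay between 59.5 and 91.3 CPM. The mean was 66.4 ± 23.5 CPM in WT and 49.5 ± 16.4 CPM in KO (SD, n = 6 each). The log2 fold change was -0.42, with an approximate 95% interval from -0.97 to 0.13 (adjusted p = 0.41, edgeR). Exons of Pklr share 711 bases, 22% of its exonic length, with Hcn3 on the opposite strand, and exons of Pfkfb1 share 123 bases with Apex2. Counting set no strand option, so fragments of those stretches cannot be told apart.

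The 3 enzymes that carry pyruvate to fructose 6-phosphate differed little between the groups. Pcx, pyruvate carboxylase (chromosome 19, 4510472 to 4621752), was at 660 to 892 CPM (median 755) in WT and at 639 to 922 CPM (median 712) in KO. Pck1, the cytosolic PEP carboxykinase (chromosome 2, 173153048 to 173159273), was at 4246 to 6129 CPM (median 4935) in WT and at 4123 to 5935 CPM (median 5219) in KO. Fbp1, fructose bisphosphatase (chromosome 13, 62864753 to 62888282), was at 1025 to 1290 CPM (median 1221) in WT and at 920 to 1372 CPM (median 1015) in KO.

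All 3 ranges overlapped between the groups, and none of the 3 genes passed the threshold. Approximate 95% intervals of the log2 fold change ran from -0.26 to 0.17 for Pcx, -0.22 to 0.27 for Pck1 and -0.37 to 0.12 for Fbp1. These intervals use a normal quantile and are narrower than the edgeR test would give. Changes slightly beyond the bounds are therefore not excluded. Across all 12 libraries the highest value was 1.44 times the lowest for Pcx, 1.49 times for Pck1 and 1.49 times for Fbp1.

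Glucose release depends on G6pc (chromosome 11, 101367561 to 101377903), the catalytic subunit of glucose-6-phosphatase, and on Slc37a4 (chromosome 9, 44398176 to 44402963), which carries glucose 6-phosphate into the endoplasmic reticulum. G6pc was at 250, 51.0, 239, 653, 759 and 686 CPM in WT 573, 590, 601, 776, 777 and 778. It was at 221, 173, 142, 68.6, 69.4 and 484 CPM in KO 574, 584, 588, 591, 602 and 780. The highest level was 14.9 times the lowest, and both came from WT livers. Means were 440 ± 295 CPM in WT and 193 ± 154 CPM in KO (SD, n = 6 each). The log2 fold change of -1.19 had an approximate 95% interval from -2.46 to 0.09 and did not pass the threshold (adjusted p = 0.33, edgeR).

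G6pc levels split by library number. All 8 libraries numbered 573 to 602 were at 51.0 to 250 CPM and all 4 numbered 776 to 780 at 484 to 759 CPM, with the single KO library of the second range among the 4. With the number range in the model, the KO minus WT difference of G6pc was -0.45 (adjusted p = 0.57, edgeR), and within libraries 573 to 602 it was -0.41 (adjusted p = 0.81). Slc37a4 showed the same split at a smaller size, with 198 to 300 CPM in the first range and 341 to 420 CPM in the second. Between genotypes it was at 198 to 410 CPM (median 321) in WT and 236 to 420 CPM (median 277) in KO, a log2 fold change of -0.12 (SE 0.18, adjusted p = 0.74, edgeR).

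Ppargc1a (chromosome 5, 51454250 to 51567726, minus strand) encodes PGC-1α, a coactivator of gluconeogenic and mitochondrial genes. It was the least abundant of the 9, at 185 to 517 fragments per library. Its level was 7.59 to 19.0 CPM (median 11.9) in WT and 8.05 to 18.6 CPM (median 10.3) in KO. The groups overlapped, and the log2 fold change of -0.13 had an adjusted p of 0.79 (edgeR).

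**Figure D2:**
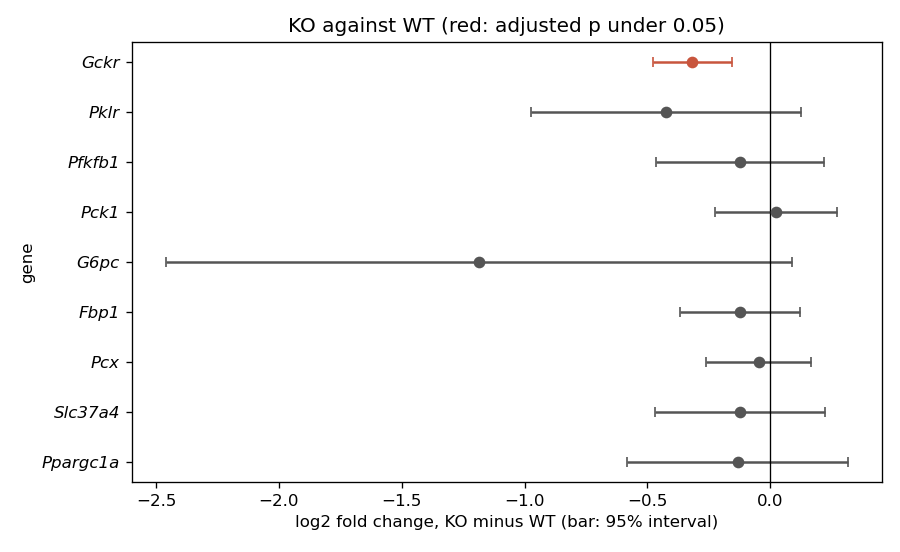
Log2 fold change of KO minus WT (horizontal axis) for the 9 genes, with Gckr in red as the gene past an adjusted p of 0.05. The 95% intervals are approximate, built from the edgeR change and its SE with a normal quantile. The Gckr interval runs from -0.48 to -0.16, and that of G6pc (-2.46 to 0.09) is the widest of the 9.

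The number range itself was tested with genotype in the model, and 4.36% of all tested genes passed an adjusted p of 0.05. Of the 9 genes, 3 did, all higher in libraries 776 to 780: G6pc by 1.92 (SE 0.44, adjusted p = 0.039), Slc37a4 by 0.58 (SE 0.12, adjusted p = 0.021) and Ppargc1a by 0.66 (SE 0.17, adjusted p = 0.049) on the log2 scale (edgeR). Ppargc1a still overlapped between the ranges, at 7.59 to 13.2 against 11.1 to 19.0 CPM. Pck1 was 0.26 higher (SE 0.12, adjusted p = 0.21) and did not pass the threshold. Since the second range holds 1 KO library and the first 5, KO and WT averages of these genes carry the ranges in unequal shares.

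Feeding-type variation was read from genes other than the control points described here, because the labels do not record it. Whether these genes vary independently of glucose control was not tested. For each library, the mean z score of 16 fasting-induced genes (such as Pdk4, Cyp4a10, Cyp4a14, Fgf21 and Ehhadh) was taken, and the mean z score of 13 tested lipogenic genes (such as Fasn, Acaca, Acly, Scd1 and Elovl6) was subtracted. This fasting index was -0.01 ± 0.60 in KO and 0.01 ± 0.90 in WT (SD, n = 6 each). The difference of -0.02 had p = 0.97 in a two-sided exact permutation test. The lists that make up the index did not mirror each other: their scores had r = 0.14 and rho = 0.03 over 12 libraries (permutation p = 0.66 and 0.94, both 0.74 and 0.94 after adjustment over 3 relations). They are therefore also given apart. KO minus WT was -0.26 for the fasting-induced list and -0.24 for the lipogenic list (two-sided exact permutation p = 0.55 and 0.24). Because 1 score is subtracted from the other, these differences largely cancel in the index.

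Against the index, with genotype in the model, 0 of the 9 genes passed an adjusted p of 0.05 by edgeR, beside 2.87% of all genes tested. At an unadjusted p under 0.05 by edgeR there were 2 of 9, G6pc and Pklr, beside 2975 of 13677 genes tested. limma-voom called 1 of 9, beside 426 genes of the whole table. G6pc changed by 1.04 on the log2 scale per 1 SD of the index (SE 0.25, adjusted p = 0.053, edgeR) and Pklr by -0.33 (SE 0.15, adjusted p = 0.22, edgeR). The Pklr slope ran from -0.48 without WT 590 (adjusted p = 0.030) to -0.13 without WT 776 (adjusted p = 0.62), the library with the lowest Pklr level. Within libraries 573 to 602 it was -0.11 (adjusted p = 0.80, edgeR). The G6pc slope was 0.67 without WT 590 (adjusted p = 0.091) and 1.10 without WT 778 (adjusted p = 0.040, edgeR). Fits on fewer libraries are per SD of the index recomputed in those libraries. No gene of the whole table differed between the genotypes in its slope by edgeR at an adjusted p of 0.05 (0%), 1157 did at an unadjusted p under 0.05 and 0 by limma-voom. None of the 9 genes was among those 1157.

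With the fasting-induced list alone, G6pc was the only 1 of the 9 to pass, beside 6.45% of all genes. Its level changed by 1.18 on the log2 scale per 1 SD of the list score (SE 0.13, adjusted p = 0.0012, edgeR). The score was lowest in WT 590 (-1.37), where G6pc was at 51.0 CPM, and highest in WT 776 (0.87), where it was at 653 CPM. KO libraries lay along the same range, from KO 588 (-0.71, 142 CPM) to KO 780 (0.65, 484 CPM). Each of the 12 fits with 1 library left out kept G6pc past the threshold. Slopes ran from 0.91 to 1.30, each per SD of the score recomputed in the libraries kept.

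Over the 12 libraries log2 G6pc and the list score had r = 0.93 and rho = 0.89 (permutation test, adjusted p = 0.018 and 0.044 over 13690 genes). Without WT 590 and WT 776, the libraries farthest from the median score, r was 0.91. The list score also separated the number ranges, at -1.37 to 0.33 in libraries 573 to 602 and 0.57 to 0.87 in libraries 776 to 780. Within the 8 libraries 573 to 602, r was 0.84 and rho 0.74 (exact permutation p = 0.0070 and 0.046). The edgeR slope of G6pc was 0.98 with the number range in the model (adjusted p = 0.061) and 0.82 in those 8 libraries (adjusted p = 0.28). Both were above 0, while the call across all genes did not hold. The score and its SD were recomputed in the 8 libraries, so 0.82 is in another unit than 1.18.

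**Figure D3:**
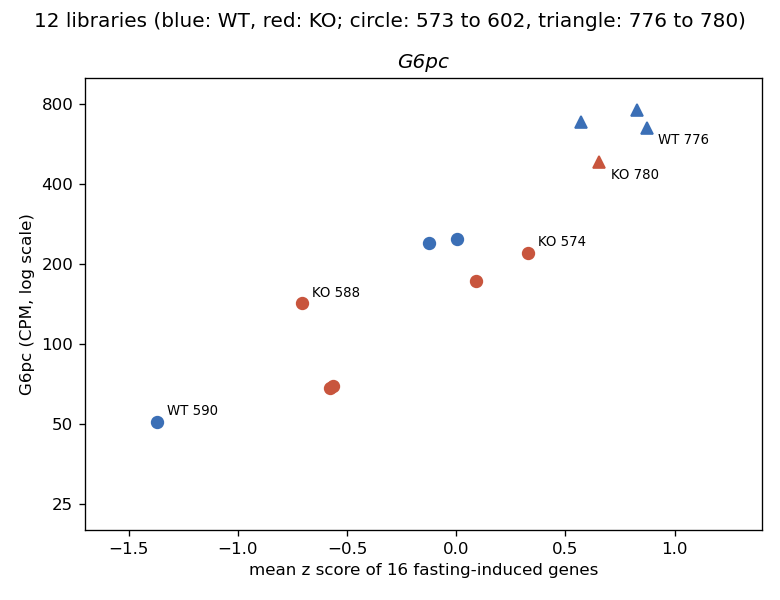
Level of G6pc in CPM on a log axis against the mean z score of the 16 fasting-induced genes in each of 12 liver libraries, with WT in blue, KO in red, circles for libraries 573 to 602 and triangles for 776 to 780. G6pc climbs from 51.0 CPM in WT 590 to 653 CPM in WT 776.

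The other 8 genes did not follow the list past the threshold. Ppargc1a (0.20, SE 0.10, adjusted p = 0.26), Slc37a4 (0.15, SE 0.08, adjusted p = 0.27) and Pck1 (0.11, SE 0.06, adjusted p = 0.25) had the next largest upward slopes (edgeR). Within the number ranges the first 2 of these turned: with the range in the model, the slope of Slc37a4 was -0.15 and that of Ppargc1a -0.08. That of Pck1 was 0.04 in the same model. Pklr had the largest downward slope (-0.11, SE 0.17, adjusted p = 0.72, edgeR). Pcx (0.05), Pfkfb1 (0.05), Fbp1 (0.02) and Gckr (-0.03) were within 0.06 of 0 on the log2 scale per SD. The Gckr difference between genotypes was -0.32 both with the index in the model (adjusted p = 0.038, edgeR) and without it. The index differed by only -0.02 between the groups, so including it could hardly move this value. Both list scores within it averaged lower in KO, by -0.26 (fasting-induced) and -0.24 (lipogenic). The Gckr difference with either list alone in the model is not given. The part of feeding-type variation in the Gckr difference was not tested.

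**Figure D4:**
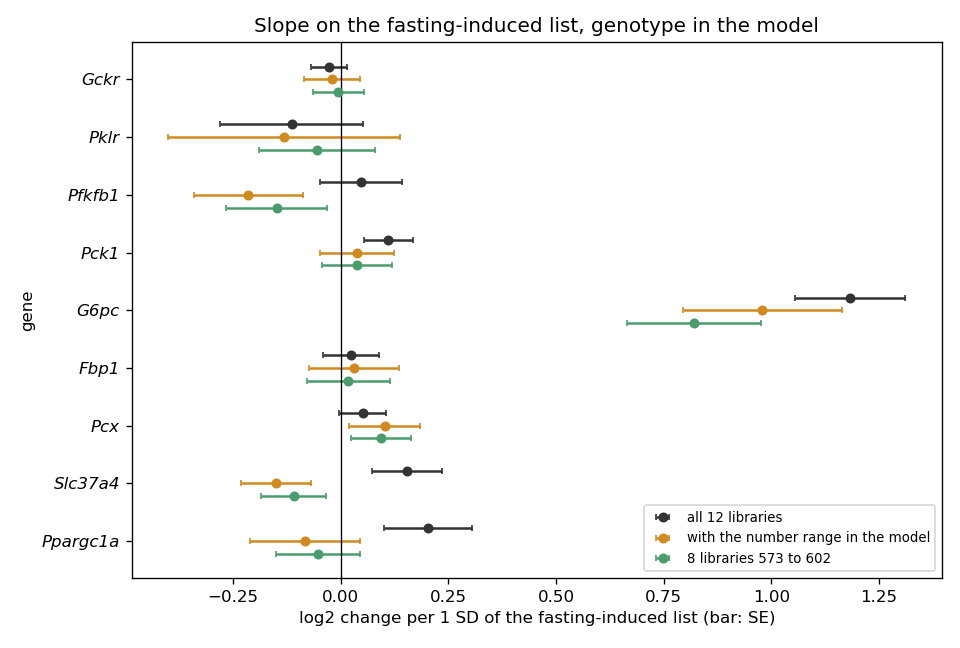
Slope of each of the 9 genes on the fasting-induced list (horizontal axis, log2 change per 1 SD, with SE as bars, edgeR with genotype in the model) in all 12 libraries (black), with the number range in the model (orange) and in the 8 libraries 573 to 602 (green). G6pc lies at 0.82 to 1.18 in all 3, while Slc37a4 and Ppargc1a change sign. The score and its SD were recomputed in the 8 libraries, so the green slopes are in another unit.

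With the lipogenic list, Pklr had r = 0.80 and rho = 0.83 over 12 libraries. These did not pass adjustment over all genes (permutation p = 0.0017 and 0.0015 unadjusted, 0.99 and 1 adjusted). Without the 2 libraries farthest from the median r was 0.70, and within libraries 573 to 602 it was 0.47 (exact permutation p = 0.24).

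The acute phase response, a set of plasma protein genes that inflammation raises in liver, moved with these measures. The score of 18 acute phase genes had r = -0.75 and rho = -0.76 with the fasting-induced list over 12 libraries (permutation p = 0.0045 and 0.0051, adjusted 0.013 and 0.015 over 3 relations), and r = -0.69 without the 2 farthest libraries. Within libraries 573 to 602 it was r = -0.63 (exact permutation p = 0.094). Acute phase scores were highest in KO 602 (1.74), WT 590 (1.25) and WT 601 (0.83), and G6pc in these was 69.4, 51.0 and 239 CPM. G6pc had r = -0.74 and rho = -0.81 with the acute phase score (permutation test, adjusted p = 0.11 and 0.099). With both scores in the model, the G6pc slope on the fasting-induced list was 1.03 (adjusted p = 0.082, edgeR).

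RefSeq promoters (GRCm38.p6, 250 bases before to 50 after each start) were found for all 9 genes, 16 windows in all. The 3 shown are those of G6pc, with the widest range, Pck1, with one of the narrowest, and Pklr. The last had r = 0.80 with the lipogenic list, which did not pass adjustment over all genes. Capitals mark matches on either strand to the letters TTACGTNA (cAMP response type), TNTTTTG (insulin response type), TGTTTNC (forkhead type), CACGNG with CNCGTG 5 bases further on (carbohydrate response type) and TATAAA (the core box). The letters TGACGTCA, the full cAMP element, were searched too.
G6pc, chr11:101367466-101367765, plus strand: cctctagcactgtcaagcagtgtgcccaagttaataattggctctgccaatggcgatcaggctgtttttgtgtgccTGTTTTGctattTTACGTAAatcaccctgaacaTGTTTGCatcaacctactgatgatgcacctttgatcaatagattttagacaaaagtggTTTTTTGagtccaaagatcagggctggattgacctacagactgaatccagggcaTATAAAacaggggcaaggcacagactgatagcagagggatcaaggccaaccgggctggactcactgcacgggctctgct
Pck1, chr2:173152823-173153122, plus strand: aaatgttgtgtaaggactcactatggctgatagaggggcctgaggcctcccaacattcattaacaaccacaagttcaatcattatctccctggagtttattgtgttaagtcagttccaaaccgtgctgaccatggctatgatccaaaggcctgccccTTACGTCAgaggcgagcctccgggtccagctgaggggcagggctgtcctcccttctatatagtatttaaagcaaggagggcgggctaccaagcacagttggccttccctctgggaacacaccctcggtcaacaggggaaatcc
Pklr, chr3:89136373-89136672, plus strand: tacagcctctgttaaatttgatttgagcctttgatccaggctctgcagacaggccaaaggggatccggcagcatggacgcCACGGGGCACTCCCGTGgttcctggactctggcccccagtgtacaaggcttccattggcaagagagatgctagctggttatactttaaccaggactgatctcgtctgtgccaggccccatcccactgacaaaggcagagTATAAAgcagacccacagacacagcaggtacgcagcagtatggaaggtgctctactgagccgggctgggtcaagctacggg

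Both G6pc and Pck1 held a match to TTACGTNA, TTACGTAA at 162 bases before the start in G6pc and TTACGTCA at 93 bases before it in Pck1. That motif was in 0.898% of 32841 mouse promoters of this length. In the G6pc window there were also 2 matches to TNTTTTG (18.6% of promoters), 1 to TGTTTNC (20.5%) and 1 to the core box (13.6%), and in the Pck1 window none of these letters occurred. The Pklr window shown held CACGGGGCACTCCCGTG, the carbohydrate response type found in 0.0457% of promoters, and the core box. The other Pklr window, chr3:89135892-89136191, held no match to any of the searched letters. Windows of Gckr and the remaining genes held no TTACGTNA and no carbohydrate response type, and TGACGTCA (1.79% of promoters) was in none of the 16. Motifs TTACGTNA and TGACGTCA overlap in their inner letters, so a site can be close to both. A match describes letters only, and binding was not measured.

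Per exonic length in WT, where lengths merge all annotated exons of a gene, Pck1 was highest at 1463 ± 205 CPM per kb, followed by Fbp1 at 700 ± 66.7 (SD, n = 6). G6pc (182 ± 122), Pcx (179 ± 18.8) and Slc37a4 (152 ± 36.3) came next and did not differ beyond their spread. Gckr (47.8 ± 4.90), Pklr (20.5 ± 7.25), Pfkfb1 (13.6 ± 2.09) and Ppargc1a (1.94 ± 0.61) followed, where the spreads of Pklr and Pfkfb1 overlapped.

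**Figure D5:**
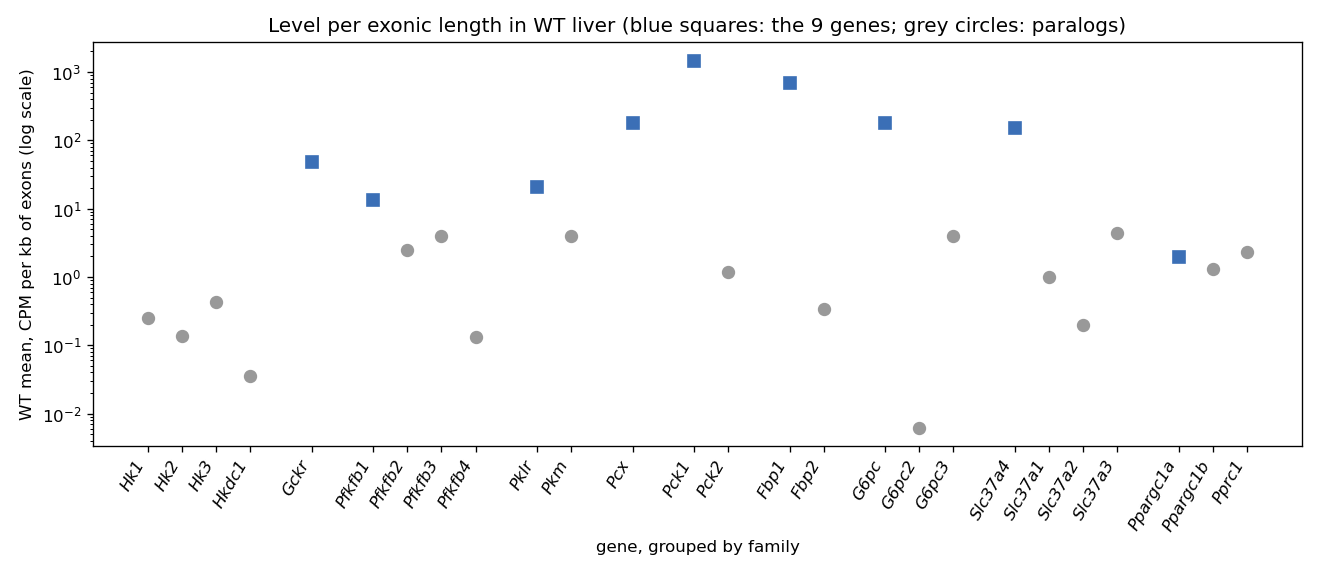
Mean level per kb of exons in 6 WT libraries (vertical log axis, CPM per kb) of the 9 genes (blue squares) and their paralogs and hexokinases (grey circles), grouped by family along the horizontal axis. Each blue square is above the circles of its family except Ppargc1a (1.94), which lies between Ppargc1b (1.31) and Pprc1 (2.29).

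The paralogs, and the hexokinases listed with them, were mostly scarce in these livers. Of the hexokinases, Hk3 was at 0.430, Hk1 at 0.254, Hk2 at 0.135 and Hkdc1 at 0.0354 CPM per kb in WT. Among the other PFKFB enzymes Pfkfb3 was at 3.94, Pfkfb2 at 2.48 and Pfkfb4 at 0.132 CPM per kb, and muscle-type pyruvate kinase Pkm was at 3.99. Mitochondrial PEP carboxykinase Pck2 was at 1.17, muscle fructose bisphosphatase Fbp2 at 0.342, ubiquitous glucose-6-phosphatase G6pc3 at 3.99 and islet G6pc2 at 0.0062 CPM per kb. Slc37a3 was at 4.35, Slc37a1 at 0.996 and Slc37a2 at 0.201 CPM per kb.

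Of these 18 listed paralogs and hexokinases, 1 of them not shown, 16 were tested. Between KO and WT 0 passed by edgeR, with 4 at an unadjusted p under 0.05, beside 2903 of 13706 tested genes. DESeq2 called 2, Slc37a2 and Hk3, beside 1175 of all tested genes. limma-voom called 1, Slc37a2, beside 573. The log2 fold change was above 0 in 14 of 16 (median 0.23). By edgeR the smallest p-values belonged to Slc37a2 (0.82, adjusted p = 0.071) and Hk3 (0.78, adjusted p = 0.077). On the fasting-induced list, which called 6.45% of all genes, the coactivator Ppargc1b rose by 0.38 per SD (SE 0.10, adjusted p = 0.045, edgeR). The list score separated the number ranges, and the slope of Ppargc1b within them is not given.

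Around the control points, 1 of 18 other enzymes of the pathway passed between genotypes, beside 3.82% of all tested genes. Muscle-type phosphofructokinase Pfkm fell from 20.6 ± 0.80 to 16.7 ± 1.21 CPM (SD, n = 6 each), with no overlap of the groups. The fall was 0.31 on the log2 scale (adjusted p = 0.021, edgeR). DESeq2 called 4 of the 18 and limma-voom 1, with Pfkm in both. Of all 13706 tested genes DESeq2 called 1175 and limma-voom 573. The list had a median of -0.18, with 6 of 18 above 0. Of 21 substrate supply genes, 1 passed: glycerol kinase Gk, which brings glycerol into gluconeogenesis, fell by 0.58 from 148 ± 38.0 to 98.7 ± 13.4 CPM (adjusted p = 0.049, edgeR). DESeq2 called 3 of the 21, Gk among them, and limma-voom called 0. Mpc1, a subunit of the mitochondrial pyruvate carrier, was 0.31 lower without passing (adjusted p = 0.071).

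Along the fasting-induced list, 2 of the 18 enzymes rose and 1 fell, and 2 of the 21 substrate supply genes rose, by edgeR. The share called over all genes was 6.45%. With the number range in the model 39 genes of the whole table were called, and 0 within libraries 573 to 602. Slopes of the genes named here are not given within the ranges. The glycolytic enzyme Eno1 (0.21, adjusted p = 0.023), Gk (0.22, adjusted p = 0.034) and mitochondrial glycerol phosphate dehydrogenase Gpd2 (0.30, adjusted p = 0.034) rose with the score, and Aldoc fell (-0.65, adjusted p = 0.015), all by edgeR per 1 SD.

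Among 42 regulators of these genes, 1 rose and 1 fell in KO by edgeR, beside 3.82% of all tested genes called. Mlx, the partner of the carbohydrate response factor ChREBP, fell by 0.39 from 27.0 ± 1.73 to 20.7 ± 1.60 CPM (adjusted p = 0.0082, edgeR), with no overlap between groups. Foxa1, a forkhead factor of liver, rose by 0.65 from 12.3 ± 2.85 to 19.4 ± 4.29 CPM (SD, n = 6 each, adjusted p = 0.047, edgeR). DESeq2 called 5 of the 42, Mlx and Foxa1 among them, beside 1175 of 13706 tested genes. limma-voom called 2, with Mlx but not Foxa1 among them, beside 573 of all tested genes. On the fasting-induced list 1 of the 42 passed, beside 6.45% of all genes. This was the thioredoxin-binding protein Txnip, itself a ChREBP target, which rose by 0.62 (adjusted p = 0.029, edgeR). Its slope within the number ranges is not given.

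Between genotypes, 0 of the 16 fasting-induced genes passed by edgeR, DESeq2 or limma-voom, and 0 had an unadjusted p under 0.05. Fgf21, a hormone of fasted liver, was at -1.62 (adjusted p = 0.29) and Ehhadh, of peroxisomal fat oxidation, at -1.10 (adjusted p = 0.34, edgeR). Of 13 tested lipogenic genes, malic enzyme Me1 fell by 0.62 (adjusted p = 0.043). Of 13 clock genes, 18 acute phase genes and 7 glucocorticoid-responsive genes, 0 passed by edgeR, DESeq2 or limma-voom, with 1, 1 and 0 at an unadjusted p under 0.05. Ciart, a clock repressor, was at -0.78 (adjusted p = 0.24), Lbp, the lipopolysaccharide-binding protein, at -0.30 (adjusted p = 0.12) and the metallothionein Mt2 at 0.75 (adjusted p = 0.44, edgeR). Of 6 immediate early genes, Atf3 rose by 1.77, from 1.12 ± 0.62 to 3.87 ± 1.84 CPM (adjusted p = 0.040, edgeR). DESeq2 called Atf3 too, while limma-voom called 0 of the 6. Over all tested genes the share called by edgeR was 3.82%. Of these 13706 genes, 2903 had an unadjusted p under 0.05 by edgeR. DESeq2 called 1175 and limma-voom 573.

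The genes whose log2 CPM ran most like a given control point over the 12 libraries were found among 13697 tested genes outside the 9 and are given without a test. Closest to Gckr were the unnamed gene model Gm26982 (r = 0.94) and the solute carriers Slc35f5 (0.93) and Slc35a5 (0.91), each lower on average in KO than in WT. Closest to G6pc were Klf11, a Krüppel-like transcription factor (0.95), Mfsd2a, a lysophospholipid transporter known to be induced in fasted liver (0.94), and C730034F03Rik (0.94), and for all 3 r stayed between 0.83 and 0.89 within libraries 573 to 602. Pklr ran with Dyrk3 (0.94), Pkp4 (0.91) and the circadian repressor Bhlhe40 (0.89). Pck1 ran with Vps37a (0.88), Usp47 (0.88) and Sesn2 (0.87), and Ppargc1a with Esyt2 (0.90), Dennd4c (0.89) and Rab21 (0.89). Each value is over all 12 libraries, which differ in depth, number range and genotype.

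Among the 9 genes themselves, over the same 12 libraries, Slc37a4 had r = 0.76 with Pck1 and r = 0.73 with Pfkfb1. Within libraries 573 to 602 these were 0.48 and 0.60. G6pc had r = 0.61 with Pck1 and r = 0.57 with Slc37a4 over 12 libraries, and within libraries 573 to 602 r was 0.31 with Pck1 and turned to -0.45 with Slc37a4. Gckr had no r above 0.29 with the other 8 over 12 libraries. All of these are descriptions, given without a test.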

How the data were processed

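Liver RNA of 6 WT and 6 A1cf -/- mice was extracted with a miRNeasy kit and made into TruSeq libraries, per the labels' protocols. The deposited table held raw fragment counts per gene name. The authors' counting tool was featureCounts 1.5.0-p2, run on GENCODE M8 exons with no option for strand or multiply mapped reads, per the file headers. Exonic length, another value per gene, stood in the same deposited table and served only for levels per kb. STAR, DESeq2 and mm10 are named in the submitters' processing notes, and further settings are not given in the sources used here. Gene positions are those of that table, on mm10.

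These counts went into edgeR 4.0.16 under R 4.3.3: filterByExpr (minimum count 10), TMM scaling, robust quasi-likelihood tests with genotype as the only term, and Benjamini-Hochberg adjustment over 13706 genes with a threshold of 0.05. Rises and falls are stated only of genes past it. CPM are TMM-scaled, log2 CPM used a prior count of 2, and SEs of log2 changes come from the change and the F statistic (change over root F). Fasting, lipogenic and acute phase scores are mean z scores of log2 CPM, and slopes on them came from edgeR with genotype in the model, leaving the list's own genes out of the share of genes called. Slopes are per SD of the score. Fits on fewer libraries recomputed score and SD, so the sizes of their slopes are in other units. Correlations used 100000 permutations, or all of them in 8 libraries. Alternatives were RLE factors, library totals, other filters, DESeq2 1.42.0, limma 3.58.1 (voom), covariates, the libraries 573 to 602, and each library left out. Fits on the fasting-induced list beside the number range, beside the acute phase score or within libraries 573 to 602, and the fit without the 2 deepest libraries, were chosen after seeing the data. The edgeR fits of KO against WT and of the fasting index slope were also tried on simulated data, and the other fits were not.

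The 9 genes and all lists were chosen with earlier results of these data known. All 9 genes are named whatever their result. From each list, up to 4 genes past the threshold between KO and WT are named, or up to 2 with the smallest p. Paralogs and hexokinases are named with their level per length. Some genes that these rules take are not reported here. For 5 of the 9 genes, the 3 genes with the highest r are named. Genes named for their slope on the fasting-induced list were chosen after their values were seen. The series' design text calls the libraries biological replicates, and the groups share no library number.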

Additional observations from a re-analysis of the deposited data

Results flagged for a closer look

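Pklr in WT 776 stood apart from its group. It was at 26.4 CPM, while the other 5 WT libraries lay between 59.5 and 91.3 CPM, and the gap to the nearest of them took 0.656 of the group's range, above Dixon's critical value at 95% for 6 libraries. Of 26 series of 6 values examined in this way, this was the only one past it, and chance flags about 1 in 20. The same library had the highest score on the fasting-induced list (0.87) and the lowest on the lipogenic list (-0.44). Their part in the Pklr value was not tested.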

How the results depend on the processing

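Labels without feeding state, ranges with unequal shares of KO and 12 libraries limit what can be read here. Depth does not limit most of the 9 genes, since even Ppargc1a had at least 185 fragments per library. A count of 0 would allow 3 counts, or 0.059 to 0.131 CPM, and such floors cover counting error only. No paired analysis was possible because the groups share no library numbers.

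Gckr was below WT in all 23 alternative fits, at -0.37 to -0.27, and passed in 7 of them. It did not pass, which left 0 of the 9 genes called, with scaling by library totals alone, with every gene of at least 1 count, with a floor of 1 CPM on the mean, in only libraries 573 to 602 or without the 2 deepest libraries. Leaving out 1 library gave 0 (without WT 573) to 1 (without WT 601) of the 9. All tested genes past the threshold numbered 523, and 1175 with DESeq2, 817 with the fasting index and 843 with the acute phase score as a covariate, 57 in libraries 573 to 602, 206 without the 2 deepest libraries, and 266 (without WT 777) to 638 (without WT 590) with 1 library left out. With library totals only, 266 rose and 139 fell, against 236 and 287 with TMM, and the median over all genes was 0.06.

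Among uncalled KO minus WT values, Pcx was 0.0018 with library totals only, Slc37a4 0.072 and Ppargc1a 0.079 with the number range, Slc37a4 0.042 in libraries 573 to 602 and Pck1 -0.026 without the 2 deepest libraries. With 1 library left out Pck1 ran from -0.024 to 0.089, Pcx from -0.12 to 0.0013 and Ppargc1a from -0.31 to 0.011.

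The fasting index difference was -0.02. It became -0.26 with the fasting-induced list alone and 0.24 with the lipogenic list alone, its sign turned. In libraries 573 to 602 it was 0.35, and with 1 library left out it ran from -0.38 to 0.24. Genes following the index numbered 393, and 883 with the fasting-induced list alone, 1117 with centred log2 CPM, 1 in libraries 573 to 602, 18 (without KO 780) to 985 (without WT 590) with 1 left out, and 0 with the lipogenic list alone, with the number range or with the acute phase score. With the fasting-induced list they numbered 39 beside the number range, 18 beside the acute phase score and 0 in libraries 573 to 602. Of the 9 genes, 1 followed with the fasting-induced list alone, with centred log2 CPM and with limma-voom, G6pc each time, and 0 (without WT 573) to 1 (Pklr without WT 590, G6pc without WT 778) with 1 left out.

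Slopes that turned were all uncalled in both fits. With the lipogenic list alone these were Gckr 0.0039, Pck1 -0.070, G6pc -0.11, Pcx -0.11 and Slc37a4 -0.055. In libraries 573 to 602 they were Pfkfb1 -0.15, Slc37a4 -0.10 and Ppargc1a -0.12. Beside the number range they were Pfkfb1 -0.12, Pck1 -0.012, Pcx -0.0047, Slc37a4 -0.12 and Ppargc1a -0.024, and beside the acute phase score Pck1 -0.0012, Fbp1 -0.011 and Pcx -0.041. On the fasting-induced list they were Pfkfb1 -0.21, Slc37a4 -0.15 and Ppargc1a -0.082 beside the number range, Pklr 0.037 and Fbp1 -0.030 beside the acute phase score, and Pfkfb1 -0.15, Slc37a4 -0.11 and Ppargc1a -0.053 in libraries 573 to 602. With 1 library left out, index slopes ran from -0.036 to 0.036 for Gckr, -0.039 to 0.089 for Pfkfb1 and -0.019 to 0.058 for Pcx. The cause was not tested in any of these.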
